A study of Homo sapiens with 12 samples.

Results

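METTL1 and WDR4 form a methyltransferase that writes N7-methylguanosine (m7G) on some RNAs. The contacts of both proteins with RNA were compared site by site in HepG2 cells. A site was counted for a protein when both of its libraries held a cluster there on the same strand. Clusters overlapping by at least 1 nt were merged. METTL1 had 1935 such sites and WDR4 had 2551, and merging them gave 3363 sites, of the 14552 sites that at least 2 libraries of any 1 protein held in the whole series. Of these, 1043 were sites of both proteins, 843 were METTL1-only and 1477 were WDR4-only.

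The series held 12 PAR-CLIP libraries of wildtype HepG2, a hepatoma cell line with epithelial-like growth. In PAR-CLIP, cells take up 4-thiouridine, which long-wave UV light joins to bound protein, the RNA is trimmed with RNase T1, an enzyme that cuts after G, and the fragments on the immunoprecipitated protein are sequenced. METTL1 and WDR4 had 2 libraries each, numbered 1 and 2, and all 4 came from the same cell line, label and enzyme, with an antibody to a different protein. The other 8 libraries were of IGF2BP1, IGF2BP2 and IGF2BP3, mRNA-binding proteins, and served as a separate readout.

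METTL1 is the catalytic subunit, and WDR4 is a WD-repeat protein that holds the RNA and METTL1 together. Their best known substrate is the variable loop of a subset of tRNAs, where the methylated G lies within the consensus RAGGU, with R for A or G. The same pair has been described as a writer of m7G inside mRNA. In a stable complex both subunits can lie close enough to an RNA to be crosslinked, and a cluster records such a contact, not methylation.

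METTL1 replicates 1 and 2 gave 6615 and 8648 clusters, and 9765 and 9205 were deposited for WDR4, with median widths of 38 to 41 nt. Of the 8 hepatocyte marker genes, 7 had an exonic cluster in these 4 libraries, among them APOB, ALB and SERPINA1, while TTR had none. AFP and APOA1 had 1 cluster each, in 1 WDR4 library, and no reproducible site. Such a cluster was found in 4373 of the 62700 annotated genes of all types. None of the 6 markers of blood, vessel and connective tissue cells had an exonic cluster. The files gave positions alone, so depth was unknown, and no input library or RNA level was used here. RNA abundance and binding could therefore not be told apart at any site. The labels number the replicates, and where these were not separate cultures the tests below measure technical spread.

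Example sites of each kind are printed first, read from hg38 in the sense of the RNA, 5' to 3', with every G in capitals. They were chosen by a rule on position alone: the single-copy sites of each region whose cluster ends coincided best between libraries, with 3' UTR sites cut to their central 30 nt. They are examples and no sample of all sites. Sites of both proteins were these.
NT5C3B, coding sequence, chr17:41828888-41828939, minus strand: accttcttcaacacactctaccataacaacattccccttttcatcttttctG
TOX3, coding sequence, chr16:52439870-52439908, minus strand: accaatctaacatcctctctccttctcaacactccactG
DPF2, 3' UTR, chr11:65351812-65351841, plus strand: ttcatatttcatacccatctttcccttctt
PRTG, 3' UTR, chr15:55615421-55615450, minus strand: caatGtGtatGtttcaGGctttaatcttct
ETS2, intron, chr21:38805833-38805890, plus strand: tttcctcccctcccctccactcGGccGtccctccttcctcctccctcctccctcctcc
SLC6A6, intron, chr3:14450919-14450976, plus strand: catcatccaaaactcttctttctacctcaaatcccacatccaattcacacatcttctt
Sites with clusters in both METTL1 libraries and in no WDR4 library were these.
DENND4B, coding sequence, chr1:153940183-153940240, minus strand: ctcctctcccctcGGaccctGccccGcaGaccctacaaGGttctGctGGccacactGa
SREBF2, coding sequence, chr22:41867026-41867078, plus strand: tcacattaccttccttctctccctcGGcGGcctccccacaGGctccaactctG
TLK1, 3' UTR, chr2:170990984-170991013, minus strand: ttttttttaaacactcactaccatctcctt
DGKK, 3' UTR, chrX:50367950-50367979, minus strand: cccccttactctacataacaataacacata
SUGT1, intron, chr13:52680906-52680963, plus strand: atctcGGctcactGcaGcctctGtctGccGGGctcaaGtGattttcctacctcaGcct
ZNF493, intron, chr19:21411827-21411884, plus strand: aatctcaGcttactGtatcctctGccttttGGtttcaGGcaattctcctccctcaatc
Sites with clusters in both WDR4 libraries and in no METTL1 library were these.
NAF1, coding sequence, chr4:163128952-163129009, minus strand: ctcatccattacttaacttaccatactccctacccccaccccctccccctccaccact
SENP1, 3' UTR, chr12:48043626-48043655, minus strand: ttctttccctttctctttctatctctcttt
PXMP2, 3' UTR, chr12:132701428-132701457, plus strand: ccttccttcctctttcctccccccctccct
MALRD1, intron, chr10:19438096-19438153, plus strand: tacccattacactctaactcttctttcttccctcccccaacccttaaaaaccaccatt
GPAM, intron, chr10:112204395-112204452, minus strand: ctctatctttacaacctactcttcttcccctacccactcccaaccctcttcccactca
The 5 WDR4-only stretches held no G. The coding and intron stretches of the METTL1-only set held between 7 and 12. The 3' UTR stretches of TLK1 and DGKK, also METTL1-only, held none, so single sites crossed between the patterns. Single-copy means here only that the central bases of a cluster occur at no other place in the genome. Similar stretches with mismatches were not counted, while the authors' mapping allowed mismatches. The intron stretches of SUGT1 and ZNF493 resemble each other in sequence. Whether they belong to a repeat family was not tested, so they are not read as contacts with a unique sequence.

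The first question was how far the proteins shared sites. Most METTL1 sites were WDR4 sites, while most WDR4 sites were not METTL1 sites: 1092 of 1935 METTL1 sites (56.4%, 95% Wilson interval 54.2% to 58.6%) and 1074 of 2551 WDR4 sites (42.1%, 40.2% to 44%). These intervals, like all below, cover counting error only. The WDR4 libraries held more clusters, and with equal numbers per library the shares were closer, at 57.5% and 48.8%. Among clusters with a single-copy centre the shares were 43.5% and 28.9%. With 1 library of a protein left out, its sites were all clusters of the other library, so its shared share fell to between 17.7% and 20.6% for METTL1 and between 14.3% and 14.4% for WDR4. Where a METTL1 and a WDR4 cluster overlapped, they mostly lay on the same stretch. The 5' ends coincided in 54.6% to 57% of the overlapping cluster pairs over the 4 METTL1 with WDR4 comparisons. Within METTL1 the share was 56.4% and within WDR4 61.7%. Identical intervals made up 28.1% to 29.9% of the overlapping pairs between proteins, 30% within METTL1 and 34.9% within WDR4.

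Across METTL1 and WDR4 together, 26058 merged sites were found, and the libraries that held each one were counted. Most sites, 21497 (82.5%), lay in 1 library alone. All 4 libraries held 1050 sites, the most frequent combination of several libraries. Both WDR4 libraries without METTL1 held 907, and both METTL1 libraries without WDR4 held 424. The mixed pairs of 1 METTL1 with 1 WDR4 library held 264, 184, 390 and 361 sites. The METTL1 pair, with 424, was thus only slightly above the largest mixed pair, and the WDR4 pair was well above every mixed pair. In the percentage of clusters shared by a pair of libraries, same-protein pairs exceeded different-protein pairs by 4.28 points on average (one-sided exact permutation p = 0.333 over 3 pairings, the smallest that 4 libraries allow).

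**Figure D1:**
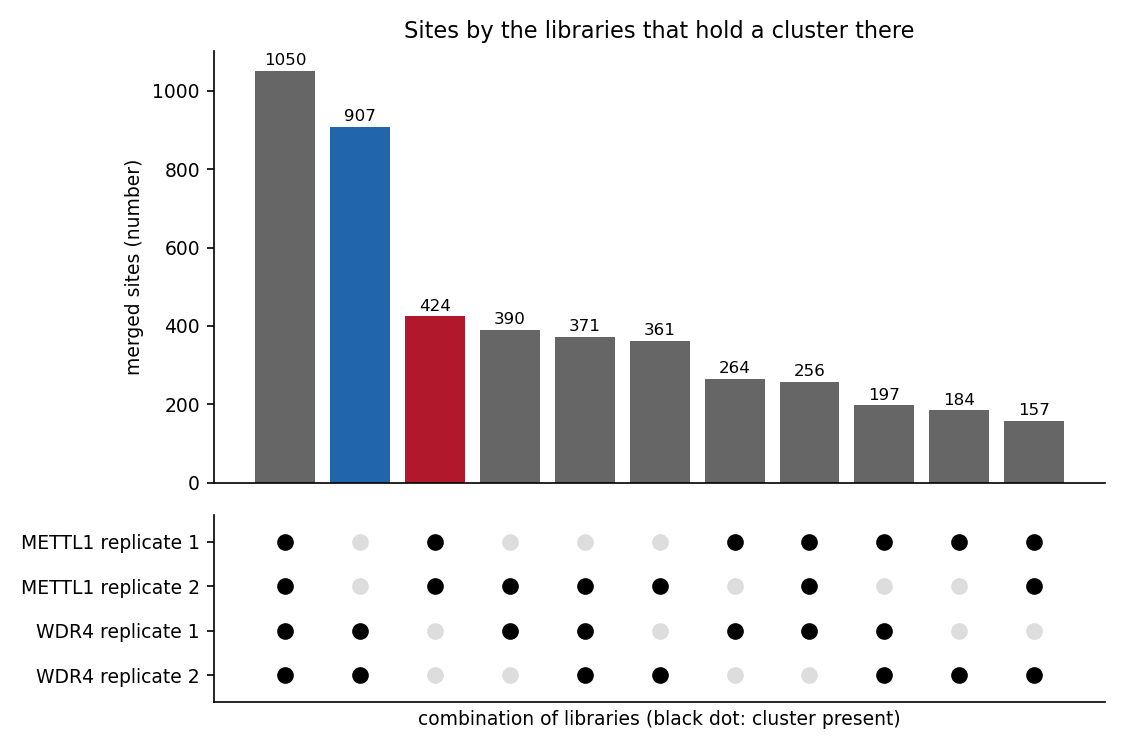
Number of merged sites (vertical axis) for each combination of at least 2 of the 4 libraries, with black dots below each bar for the libraries that held a cluster. The red bar is the METTL1 pair alone (424), the blue bar the WDR4 pair alone (907), and the tallest grey bar all 4 libraries (1050).

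Being METTL1-only or WDR4-only was often a matter of 1 library. Of the 843 METTL1-only sites, 424 (50.3%) had no WDR4 cluster, 416 had a cluster in 1 WDR4 library and 3 in both without a merged WDR4 site. The WDR4 cluster was in replicate 1 at 260 of these sites and in replicate 2 at 162. Of the 1477 WDR4-only sites, 907 (61.4%) had no METTL1 cluster and 566 had a cluster in 1 METTL1 library. It lay in METTL1 replicate 2, the larger library, at 374 sites and in replicate 1 at 200.

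The next question was which parts of transcripts each protein touched. Per library, METTL1 had more of its clusters in coding sequence and 5' UTRs, and WDR4 had more in introns and between genes. Coding sequence took 7.42% and 7.87% of the METTL1 clusters and 5.63% and 3.69% of the WDR4 clusters, a difference of 2.99 points. The WDR4 libraries differed from each other by more than the nearest libraries of the proteins did. In the 5' UTR the METTL1 libraries stood at 3.33% and 3.32% and the WDR4 libraries at 1.92% and 1.62%, with a gap of 1.56 points that was wider than the spread within either protein. Introns held 39% and 39.6% of METTL1 clusters against 42.9% and 44.2% of WDR4 clusters. Intergenic sequence held 17% and 17.4% against 19.5% and 22.4%. The 3' UTR shares of 20.2% and 19.7% for METTL1 lay only just above the 19.7% and 17.6% of WDR4.

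For each of these 5 regions both libraries of one protein lay beyond both of the other, which gives p = 0.333 in the two-sided exact permutation test, and 2 libraries against 2 cannot give a smaller p. Sizes are therefore set against the spread between libraries. The 3' UTR difference of 1.37 points was 2.4 without WDR4 replicate 1 and 0.338 without WDR4 replicate 2, and the intergenic difference of -3.71 points was -2.26 without WDR4 replicate 2. Among the wider clusters of each library the differences shrank to 1.39 points in coding sequence, 0.454 in the 5' UTR, 0.509 in the 3' UTR and -0.298 between genes. Among single-copy clusters they grew, to 6.66, 3.23, 5.23 and -7.13 points, and to -9.56 in introns, while that of the ribosomal RNA unit went from 1.65 to 0.0216. The unit has near-identical copies, and the single-copy filter takes out the stretches they share. The ribosomal fall is therefore set by the filter and says nothing on the proteins. Reads that mapped to many places were kept up to a limit by the authors, and only 46% to 50.1% of the clusters had a centre that occurs once in hg38.

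**Figure D2:**
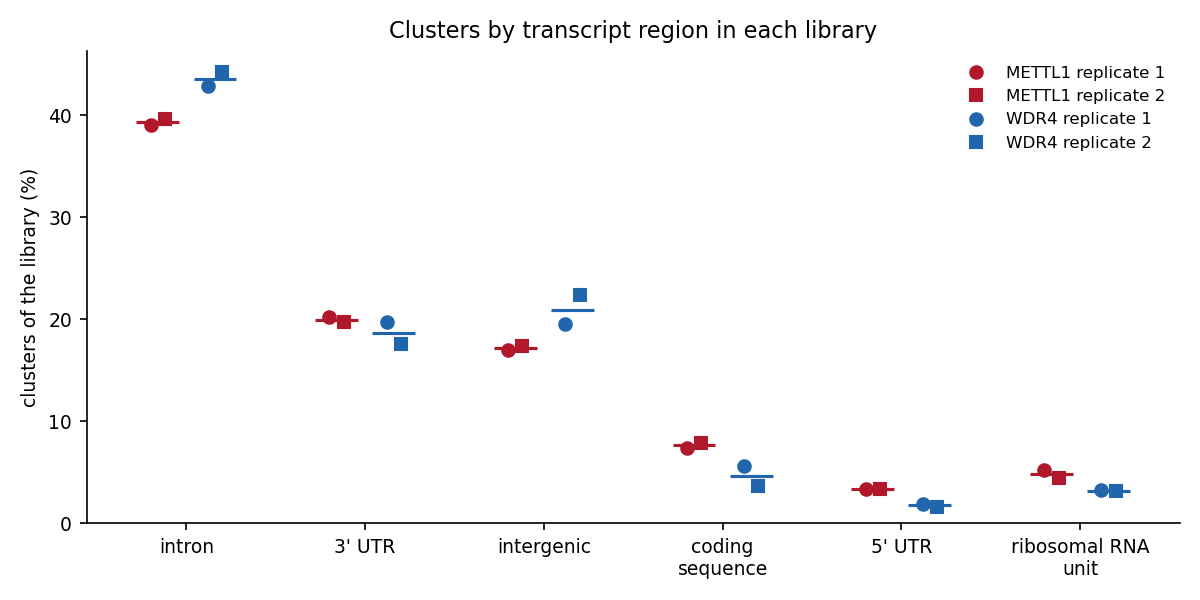
Percentage of each library's clusters (vertical axis) by region, with METTL1 in red and WDR4 in blue, replicate 1 as circles, replicate 2 as squares and protein means as lines. METTL1 lies higher in coding sequence, 5' UTR and the ribosomal RNA unit, WDR4 in introns and intergenic sequence, and the 3' UTR shares nearly meet.

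Sorting the sites rather than the clusters set shared sites apart from those of 1 protein. The ribosomal RNA transcription unit held 178 of the 1043 shared sites (17.1%, 14.9% to 19.5%), 97 of the METTL1-only sites (11.5%, 9.52% to 13.8%) and 25 of the WDR4-only sites (1.69%, 1.15% to 2.49%). These counts take each copy of the unit separately. Collapsed onto 1 copy, shared sites lay at 39 places, METTL1-only sites at 46 and WDR4-only sites at 19, so the order of shared and METTL1-only sites turned. Introns of protein-coding genes held fewer shared than other sites, with 8.05% of the shared sites (6.55% to 9.86%), 17.1% of the METTL1-only sites (14.7% to 19.8%) and 28.2% of the WDR4-only sites (25.9% to 30.5%). The mitochondrial chromosome held 73 shared sites (7%) but only 4 METTL1-only and 8 WDR4-only sites. Ribosomal and mitochondrial RNA are among the most abundant RNAs of any cell.

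Coding sequence held 84 of the METTL1-only sites (9.96%, 8.12% to 12.2%), 55 of the shared sites (5.27%, 4.07% to 6.8%) and 56 of the WDR4-only sites (3.79%, 2.93% to 4.89%). The 5' UTR held 4.63%, 2.3% and 1.62% in the same order. The 3' UTR took similar shares of the 3 kinds, 27.4% of METTL1-only, 29.9% of shared and 25.8% of WDR4-only sites. Sites antisense to an annotated gene made up 4.86%, 5.18% and 9.55%. For such sites the strand of the cluster was taken as deposited.

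The same contrast appeared in every single pair of 1 METTL1 with 1 WDR4 library, where no reproducibility rule enters. Among clusters that overlapped the other library, 12.5% to 15.9% were in introns of protein-coding genes, against 37.3% to 42.7% of those that did not. Ribosomal RNA took 11.5% to 13.5% of the overlapping and 0.629% to 2.44% of the other clusters.

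**Figure D3:**
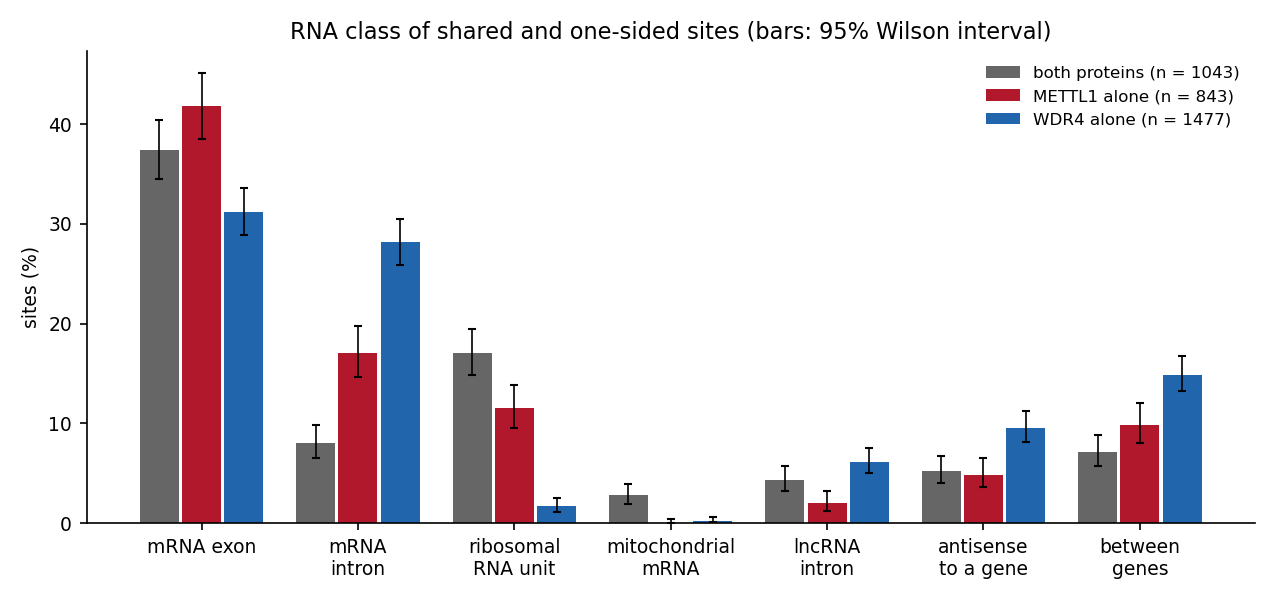
Percentage of the sites of both proteins (grey, n = 1043), of METTL1 alone (red, n = 843) and of WDR4 alone (blue, n = 1477) in each RNA class, with 95% Wilson intervals as bars. With the copies of the unit counted separately, ribosomal RNA stands at 17.1%, 11.5% and 1.69% (39, 46 and 19 places once they are collapsed), while introns of protein-coding genes rise from 8.05% through 17.1% to 28.2%.

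The ribosomal sites were counted over 5 near-identical copies of the unit, so they were collapsed onto 1 copy. They then lay at 62 places. Of these, 18 places held METTL1-only sites alone, 5 held WDR4-only sites alone and 13 held shared sites alone, and the other 26 held different kinds of site in different copies. A call at 1 copy of the unit was therefore uncertain. Among the places of a single kind, 28S rRNA, the large-subunit RNA, held 7 METTL1-only, 1 WDR4-only and 6 shared places. In 18S rRNA the numbers were 5, 1 and 3. The 5' external transcribed spacer, which is removed from the precursor, held 4, 2 and 3.

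The base composition of the clusters was compared next. METTL1 clusters held more G, with 22.1% and 20.9% of their bases against 18.5% and 17% in WDR4. T went the other way, at 27% and 27.5% in METTL1 and 29.6% and 31.8% in WDR4. Clusters with no G or a single G, called low-G here, made up 16.9% and 20% of the METTL1 clusters and 31.8% and 37.1% of the WDR4 clusters, a difference of 16 points against SDs of 2.2 and 3.71 (n = 2 and 2, two-sided exact permutation p = 0.333). In the 8 IGF2BP libraries the low-G share ran from 31.7% to 72.4%.

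This held in each region of the mRNA taken separately. In coding sequence the low-G share was 20% and 18.4% in METTL1 and 32.7% and 40.3% in WDR4. In the 3' UTR it was 25.8% and 27.9% against 36.8% and 41.9%. In introns it was 16.2% and 21.2% against 36.9% and 43.1%. Among intron clusters with a single-copy centre the values rose to 31.2% and 39.3% in METTL1 and 54.2% and 57% in WDR4, and the libraries still did not overlap. In the ribosomal RNA unit low-G clusters were rare in every library, from 0.524% to 1.04%, and the mean G content there overlapped, at 35.4% and 35.7% against 36.5% and 35.1%.

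**Figure D4:**
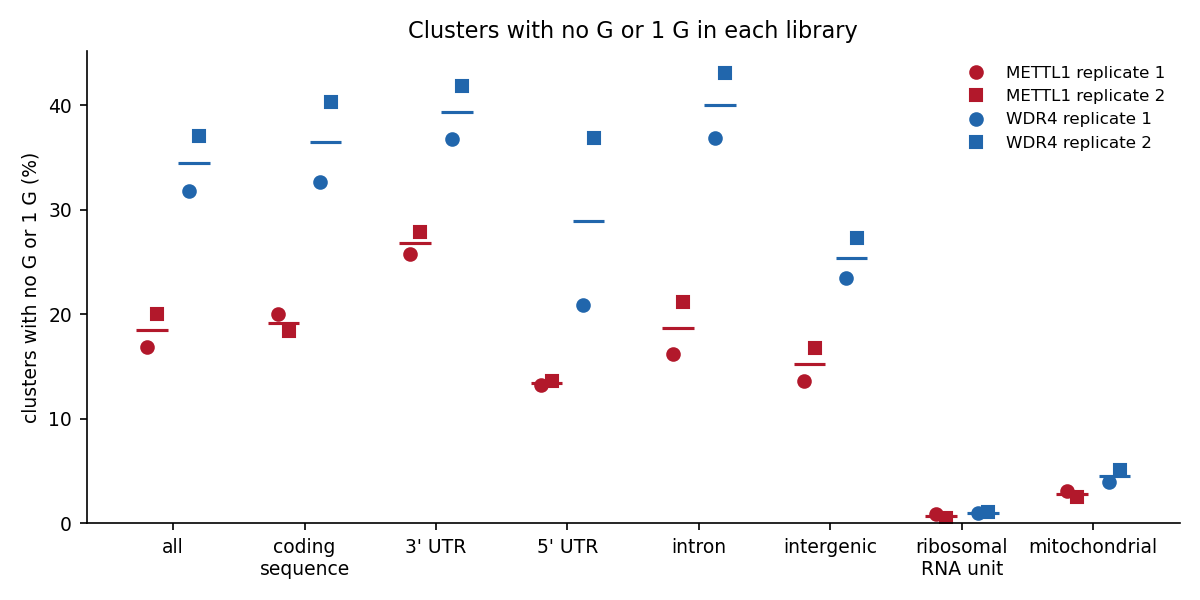
Percentage of clusters with no G or 1 G (vertical axis) in each library, over all clusters and by region, with METTL1 in red, WDR4 in blue, replicates as circles and squares and protein means as lines. WDR4 lies above METTL1 in all clusters (31.8% and 37.1% against 16.9% and 20%) and in each mRNA region, and both lie near 0 in ribosomal RNA.

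Traces of the enzyme differed too. RNase T1 leaves G just before the fragment, and G stood there in 86.1% and 86.2% of METTL1 clusters but 79.7% and 74.5% of WDR4 clusters. Among clusters with that G, the low-G share was 17.3% and 19.8% in METTL1 and 32.5% and 38.8% in WDR4. Among those without it, the share was 14.1% and 21.2% against 29.4% and 32.1%. The last base was G in 54.6% and 56.1% against 57.1% and 53%, which overlapped. The completeness of digestion in each library was not known, and its part in the difference was not tested.

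The sites repeated the pattern. A site counted as low in G when its clusters held at most 1 G in the median. This was so for 100 METTL1-only sites (11.9%, 9.85% to 14.2%), 255 shared sites (24.4%, 21.9% to 27.1%) and 615 WDR4-only sites (41.6%, 39.1% to 44.2%). In coding sequence the counts were 11 of 84 METTL1-only, 31 of 55 shared and 30 of 56 WDR4-only sites, so that shared and WDR4-only sites stood close together, as in NT5C3B, TOX3 and NAF1 above. Shared sites depended on copy number: with single-copy centres alone the low-G share was 43.7% for shared, 17.9% for METTL1-only and 40.2% for WDR4-only sites, so that shared sites no longer lay between the other kinds. In introns by region, 39 of 233 shared, 22 of 220 METTL1-only and 263 of 525 WDR4-only sites were low in G. Region introns also took in ribosomal RNA units inside annotated introns, where low-G clusters were rare. By RNA class, introns of protein-coding genes and of other genes held 84 and 45 shared, 144 and 17 METTL1-only, and 416 and 91 WDR4-only sites. Shared sites thus had the largest part from other classes, and the low-G share without these was not computed.

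Short words were counted after adding 10 nt to each end of a cluster. Of the 256 words of 4 bases, 152 (59.4% of those tested) were held by more clusters in both METTL1 libraries than in both WDR4 libraries, and 65 (25.4%) the reverse. Words share bases, so these counts describe composition rather than separate findings. Of the 175 words with a G, 140 were higher in METTL1, and of the 81 without G, 56 were higher in WDR4. By the ratio of the protein means, the word with the largest METTL1 excess was GCCG, in 16.2% and 15.5% of METTL1 clusters and 10.6% and 8.76% of WDR4 clusters. At the other end stood TATC, with 9.67% and 10.1% against 12.6% and 14.1%, and CTTT, with 25% and 26.1% against 32% and 36.4%. Among single-copy clusters 129 of the 152 and 62 of the 65 words lay the same way.

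The tRNA consensus, written RAGGT in DNA letters and searched on the strand of the cluster, occurred in 9.39% and 9.51% of the widened METTL1 clusters and in 8.52% and 7.6% of the WDR4 clusters. Its core GGT was in 52.7% and 51.5% against 45.2% and 43.5%. Both words hold G, in which METTL1 clusters were richer. At the sites, RAGGT was found in 117 shared (11.2%, 9.44% to 13.3%), 74 METTL1-only (8.78%, 7.05% to 10.9%) and 93 WDR4-only sites (6.3%, 5.17% to 7.65%). A site counted when any of its widened clusters held the word. Shared sites drew on clusters of both proteins and were wider, with a median of 58 nt against 42 nt for both other kinds. The shares were not matched for this, so no enrichment is read from their order.

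Nuclear tRNA, the classical substrate, was rare among the clusters of both proteins and less rare in METTL1. METTL1 libraries held 22 and 30 tRNA clusters (0.333% and 0.347% of all) and WDR4 libraries 13 and 10 (0.133% and 0.109%). The 95% Wilson intervals of the METTL1 shares began at 0.22% and 0.243%, and those of WDR4 ended at 0.228% and 0.2%. The difference of 0.219 points fell to 0.0263 among the wider clusters of each library. Clusters lay on 47 of the 391 tRNA genes placed on the genome. Clusters on identical or closely related genes were counted separately, so these tRNA counts include copies. The authors discarded reads with over 10 placements, which bears hardest on tRNA families with many identical copies. Tests and limits are those given for the regions, with p = 0.333 (two-sided exact permutation).

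Of the 13 reproducible tRNA sites, 2 belonged to both proteins, 9 to METTL1 alone and 2 to WDR4 alone. Their genes are printed below, because the clusters can be read against the variable loop. Capitals mark the bases covered by a cluster of any of the 4 libraries. The symbols give the amino acid letter and the anticodon.
TRY-GTA2-1, chr2:27050782-27050870, plus strand: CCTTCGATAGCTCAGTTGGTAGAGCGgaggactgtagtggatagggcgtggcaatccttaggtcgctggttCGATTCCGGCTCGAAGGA
TRA-CGC3-1, chr2:156400769-156400840, plus strand: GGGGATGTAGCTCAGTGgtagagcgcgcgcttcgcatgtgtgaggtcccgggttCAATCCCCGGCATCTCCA
TRL-AAG2-1, chr5:181187701-181187782, plus strand: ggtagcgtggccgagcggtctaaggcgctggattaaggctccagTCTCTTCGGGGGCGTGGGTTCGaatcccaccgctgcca
TRL-TAG2-1, chr14:20625370-20625451, plus strand: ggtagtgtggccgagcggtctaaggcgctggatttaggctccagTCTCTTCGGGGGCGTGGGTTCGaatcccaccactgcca
TRL-TAA1-1, chr6:144216547-144216629, plus strand: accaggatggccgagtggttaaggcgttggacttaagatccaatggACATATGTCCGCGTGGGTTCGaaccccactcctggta
TRE-TTC3-1, chr1:16872583-16872654, plus strand: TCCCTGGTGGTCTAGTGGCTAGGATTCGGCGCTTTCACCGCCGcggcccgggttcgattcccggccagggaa
TRD-GTC2-6, chr6:27479674-27479745, plus strand: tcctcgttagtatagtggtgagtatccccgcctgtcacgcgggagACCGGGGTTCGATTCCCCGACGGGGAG
TRQ-CTG1-2, chr6:27519529-27519600, plus strand: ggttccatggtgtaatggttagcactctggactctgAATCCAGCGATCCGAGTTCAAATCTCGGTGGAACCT
TRT-TGT6-1, chr5:181191687-181191758, minus strand: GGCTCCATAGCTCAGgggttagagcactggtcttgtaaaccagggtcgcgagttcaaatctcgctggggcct
TRR-TCT5-1, chr6:27562184-27562270, plus strand: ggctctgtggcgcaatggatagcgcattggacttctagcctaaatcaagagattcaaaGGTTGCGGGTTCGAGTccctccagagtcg
Of the METTL1-only sites, 5 lay on leucine tRNAs, whose variable arm is long. TRL-AAG2-1, TRL-AAG2-2 and TRL-AAG2-4 are identical in sequence and count as 1 observation, and TRL-TAG2-1 is closely related. On all of them the covered stretch ran from base 45 to base 66, over the variable arm and into the T arm, and on TRL-TAA1-1 from 47 to 67. The WDR4 libraries had 1 cluster each on leucine tRNAs, against 8 and 6 in METTL1. Most of these METTL1 clusters, and both WDR4 clusters, lay on this stretch from base 45 to base 66 in identical or closely related genes. The counts thus repeat copies of 1 observation. TRY-GTA2-1, a tyrosine tRNA, carried a shared site at its 3' end (chr2:27050853-27050886) and a WDR4-only site at its 5' end (chr2:27050782-27050807). The shared sites of TRY-GTA2-1 and TRA-CGC3-1 and the METTL1-only site of TRD-GTC2-6 ran past the 3' end of the gene, and that of TRT-TGT6-1 began before its 5' end. Of the 9 METTL1-only sites, 5 also had a cluster in 1 WDR4 library. Clusters of 4 IGF2BP libraries lay at the METTL1-only site of TRL-TAA1-1 and of 1 at that of TRL-AAG2-4, while the other METTL1-only sites had none.

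No cluster on these genes covered a whole RAGGT. TRA-CGC3-1 holds it from base 42, between the covered stretches at its ends, and TRR-TCT5-1 holds it from base 57, so that the stretch of both WDR4 libraries began inside the word, at base 59. The other printed genes do not hold it. Over all tRNA clusters, the consensus was in 0 of 22 and 4 of 30 of the widened METTL1 clusters and in 1 of 13 and 1 of 10 of the WDR4 clusters. With 0 of 22, a share of up to 14.9% was possible (95% Wilson). Of the tRNA genes with a cluster, 23 of 47 held RAGGT somewhere (48.9%, 35.3% to 62.8%), beside 161 of 390 tRNA gene symbols in all (41.3%). A missing match says only that these letters are absent from the window.

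The 3 sites classed as mitochondrial tRNA were all sites of both proteins. Classing went by cluster midpoint, so other sites that only reach into a tRNA gene are not listed. Capitals mark the tRNA genes named in each label, and any other tRNA gene in a stretch stays in lower case. As parts of the long mitochondrial transcripts, the tRNA genes also have partial nuclear copies.
MT-TI, chrM:4265-4391, plus strand: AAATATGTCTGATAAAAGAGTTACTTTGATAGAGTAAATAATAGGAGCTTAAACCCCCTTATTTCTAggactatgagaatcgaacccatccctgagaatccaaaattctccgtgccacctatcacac
MT-TK, chrM:8279-8363, plus strand: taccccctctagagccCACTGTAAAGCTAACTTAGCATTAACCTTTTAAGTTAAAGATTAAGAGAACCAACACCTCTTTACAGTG
MT-TH and MT-TS2, chrM:12071-12279, plus strand: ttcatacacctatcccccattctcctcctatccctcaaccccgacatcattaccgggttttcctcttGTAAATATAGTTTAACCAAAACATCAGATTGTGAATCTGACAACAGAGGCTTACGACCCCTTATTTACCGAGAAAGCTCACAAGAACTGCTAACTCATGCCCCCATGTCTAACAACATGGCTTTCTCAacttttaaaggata
The sites covered nearly the whole of the named genes and ran past an end of each. The MT-TH and MT-TS2 site spanned 209 nt, and MT-TI and MT-TK had 67 and 69 of their own bases covered.

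MicroRNA genes held 7 sites, of which 5 matched a mature miRNA of RefSeq (GRCh38.p14). The mature sequences are shown with the seed, bases 2 to 8, in capitals, since the sites overlapped the mature miRNAs. RNA class took miRNA genes before mRNA exons, so contact with an mRNA over the same stretch could not be told apart.
hsa-miR-423-5p: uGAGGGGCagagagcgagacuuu
hsa-miR-423-3p: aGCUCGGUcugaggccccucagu
hsa-miR-155-5p: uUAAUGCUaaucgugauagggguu
hsa-miR-3614-5p: cCACUUGGaucugaaggcugccc
hsa-miR-744-5p: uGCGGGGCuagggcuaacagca
Both arms of miR-423 were METTL1-only, with clusters in both METTL1 libraries and in neither WDR4 library, and the 5p site matched the mature miRNA base for base (chr17:30117095-30117117). miR-155-5p and miR-3614-5p carried sites of both proteins, and miR-744-5p a WDR4-only site with a cluster in METTL1 replicate 1 as well. The miR-3614-5p site ran past both ends of the mature miRNA. It had clusters in 6 IGF2BP libraries, against 0 to 3 at the other matched sites. No 2 of these seeds were identical. The let-7 genes, a family of well known growth regulators, had clusters, among these 4 libraries, in WDR4 replicate 2 alone and no reproducible site. The 2 sites without a match were on ENSG00000263963 and ENSG00000275110.

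Other small RNAs divided between the proteins. RN7SK, a regulator of transcription elongation, RN7SL1 and RN7SL2, the RNA of the signal recognition particle, and SNORA73B, SNORA57, SNORD20 and SNORD17 had METTL1-only sites. Of these 7, RN7SK, RN7SL1, RN7SL2 and SNORA73B also had a cluster in WDR4 replicate 2 and SNORD17 in replicate 1. The stretch of RN7SL1 is identical to that of RN7SL5P, whose site was shared. The single METTL1-only site on telomerase RNA, chr3:169764688-169764741, had no WDR4 and no IGF2BP cluster. RNY1, a Y RNA, SNORD97 and 4 of the U5 and U5-like snRNA sites (RNU5B-1, RNU5D-1, RNU5D-2P and RNU5E-4P) were WDR4-only, while RNU5A-1 and RNU5E-1 were shared. RNY1, SNORD97 and these 4 snRNA sites each had a cluster in 1 METTL1 library as well. U5 genes have near copies, as RN7SL genes do, and assignment to 1 copy is uncertain. RMRP, the RNA of RNase MRP, showed both proteins on different stretches of a single-copy gene.
RMRP, METTL1-only site, chr9:35657876-35657912, minus strand: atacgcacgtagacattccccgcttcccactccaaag
RMRP, WDR4-only site, chr9:35657950-35658016, minus strand: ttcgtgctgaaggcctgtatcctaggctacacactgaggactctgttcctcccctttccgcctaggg
Each protein had clusters in both of its libraries at its own RMRP site and none at the other's. RPPH1, the RNA of RNase P, had a shared site with clusters in all 8 IGF2BP libraries and a WDR4-only site with clusters in 2.

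By gene, exonic sites were found for both proteins in 394 genes (9.01% of the 4373 genes with an exonic cluster in any of the 4 libraries), for METTL1 alone in 263 (6.01%) and for WDR4 alone in 357 (8.16%). Of the METTL1 genes, 60% were WDR4 genes, and of the WDR4 genes 52.5% were METTL1 genes. Sharing a gene did not always mean sharing a site, since 39 of the 394 genes had no shared site. Of the 403 exonic METTL1-only sites, 130 lay in a gene with a WDR4 site, and of the 543 exonic WDR4-only sites, 162 lay in a gene with a METTL1 site.

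The genes with the most shared sites were IGF2, MTCO1P12, ENSG00000284779, APOB and PLBD2. In IGF2, a growth factor gene (chr11:2129112-2158391), 25 shared sites stood beside 4 METTL1-only and 2 WDR4-only sites, and 20 of the shared ones lay in the 3' UTR. Its clusters numbered 33 and 37 in METTL1 and 37 and 32 in WDR4, so the proteins overlapped. ENSG00000284779 overlaps IGF2 on the same strand and shares its clusters. MTCO1P12 is a nuclear copy of mitochondrial sequence, where reads cannot be told from those of the mitochondrial gene, and all 8 of its sites were shared. APOB, the apolipoprotein of liver lipoproteins, had its 6 shared sites in coding sequence. PLBD2, a lysosomal protein gene, had its 6 in the 3' UTR.

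The genes with the most METTL1-only sites were FASN, IGF2, XIAP, ARID3A and MAVS, although IGF2 and ARID3A, with 4 shared against 3 METTL1-only sites, had more shared ones. FASN, fatty acid synthase, had 4 METTL1-only sites and no other, 3 of them in coding sequence, with 8 and 10 clusters in METTL1 against 4 and 1 in WDR4. FASN was chosen through sites built from these same clusters, so its higher METTL1 count follows from the choice. XIAP, an inhibitor of cell death, had 4 METTL1-only sites in the 3' UTR, with 6 and 4 clusters against 1 and 4. In MAVS, an adaptor of antiviral signalling, the counts were 7 and 10 against 10 and 3, so the proteins overlapped and its 3 METTL1-only sites went with a low count in WDR4 replicate 2.

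The genes with the most WDR4-only sites were MTND4P12, MEX3A, MYADM, AJUBA and APOBEC3C. Their sites were built from the clusters counted here, so higher WDR4 counts are no added evidence. MEX3A, an RNA-binding protein gene, had 4 WDR4-only sites, 3 of them in the 5' UTR, with 5 and 6 clusters in WDR4 against 0 and 4 in METTL1. MYADM had 4, with 7 and 4 clusters against 1 and 4. AJUBA, a LIM domain protein gene, had 3 and 1 shared site, with 6 and 5 clusters against 3 and 2. APOBEC3C, a cytidine deaminase gene, had 3 beside 1 METTL1-only site, with 4 and 3 clusters against 2 and 3. MTND4P12, another nuclear copy of mitochondrial sequence, had 5 WDR4-only and 4 shared sites.

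Gene lists were read against this background. For genes with a cluster it was 4373 of the 62700 annotated genes of all types. That of tRNA modification enzymes had clusters on 4 of its 28 genes and a reproducible site on none, where 23.2% of all genes with a cluster had a site of either protein. METTL1 itself had no exonic cluster, and WDR4 had 1, in WDR4 replicate 1. Among enzymes and readers of m7G in caps, rRNA and mRNA, 5 of 11 genes had a cluster, IGF2BP1 had 2 shared and 2 METTL1-only sites, and IGF2BP2 had 2 WDR4-only sites. Of the 20 cytosolic aminoacyl-tRNA synthetase genes, 7 had a cluster and HARS1 alone had a site, a WDR4-only one.

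In the list of the p53 pathway and cell cycle, 20 of 23 genes had a cluster and 9 had a site. The background was the 23.2% above, and the list was chosen with results of these data known, so nothing is read from its count. MDM2, the ubiquitin ligase that opposes p53, had 4 shared, 2 METTL1-only and 2 WDR4-only sites, with 7 and 9 clusters in METTL1 and 6 and 10 in WDR4. CCNG1, a p53 target, had a shared site. CDKN1A, a cyclin-dependent kinase inhibitor, PPM1D, a phosphatase, and ZMAT3 each had 1 METTL1-only site, although CDKN1A had 7 clusters in WDR4 replicate 1. CCND1, CDK4, CDK6 and MDM4 had WDR4-only sites. MDM4, a relative of MDM2, had 0 and 1 clusters in METTL1 against 3 and 6 in WDR4, and CDK6 had 0 and 0 against 1 and 1.

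In the list of liver plasma proteins, 14 of 22 genes had a cluster and 5 had a site. For this list and the next the backgrounds are again those above, with 23.2% for genes with a site. Lists were chosen with earlier results known, so nothing is read from these counts. APOB, FGB, SERPINA1 and FN1 had sites of both proteins and ALB, albumin, a WDR4-only site, with 0 and 1 clusters in METTL1 against 2 and 4 in WDR4. FN1, fibronectin, had 1 METTL1-only and 1 WDR4-only site and none shared. Of the 13 abundant small noncoding RNAs, 12 were in the annotation and 6 had a cluster and each of these had a site, RMRP and RPPH1 for both proteins, RN7SK, RN7SL1 and RN7SL2 for METTL1 and RNY1 for WDR4.

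The IGF2BP libraries gave a separate readout, since they took no part in choosing the sites. They came from the same cell line, label and enzyme, so they are not independent of what any PAR-CLIP library readily detects. A shared site also needed clusters in 4 libraries and the other kinds in 2, so ease of detection was not held equal. Almost all shared sites had an IGF2BP cluster: 991 of 1043 (95%, 93.5% to 96.2%) had a cluster in at least 1 of the 8 libraries. This was so for 598 of 843 METTL1-only sites (70.9%, 67.8% to 73.9%) and 774 of 1477 WDR4-only sites (52.4%, 49.9% to 54.9%). All 8 libraries had a cluster at 295 shared sites (28.3%), 46 METTL1-only (5.46%) and 89 WDR4-only sites (6.03%). The median number of IGF2BP libraries per site was 6, 3 and 1.

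Shared sites were also wider, with a median of 58 nt against 42 nt for both other kinds, and fewer had a single-copy centre, 33.4% against 45.3% and 51.4%. Among sites of 41 to 60 nt the IGF2BP share was 95.3% for shared, 75.2% for METTL1-only and 62.6% for WDR4-only sites. Among sites with a single-copy centre it was 92.5%, 72.5% and 45.8%. The order was kept in each of these subsets, but width and copy number were not matched together, and single-copy sites still had median widths of 50, 38 and 31 nt. The part of width, copy number and RNA level in the result was not tested.

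The gap between METTL1-only and WDR4-only sites was not the same in every region. In the 3' UTR the IGF2BP share was 99.7% for shared, 88.7% for METTL1-only (84% to 92.2%) and 87.7% for WDR4-only sites (84% to 90.6%), so the last pair lay within each other's intervals. In coding sequence shared sites stood at 98.2%, METTL1-only sites at 81% (71.3% to 87.9%) and WDR4-only sites at 87.5% (76.4% to 93.8%), the last pair in the other order but with overlapping intervals. In introns by region the shares were 93.6%, 52.7% (46.1% to 59.2%) and 38.7% (34.6% to 42.9%), and between genes 82.9%, 60% (51.4% to 68%) and 21% (17.1% to 25.5%). The intron sites took in ribosomal RNA units inside annotated introns. Such units made up a larger part of the shared and METTL1-only than of the WDR4-only intron sites, so this gap is not one of introns alone. WDR4-only sites between genes were short, with a median of 21 nt.

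The share also followed the number of libraries of the other protein. METTL1-only sites with no WDR4 cluster were at 59.9% (55.2% to 64.5%) and those with 1 WDR4 library at 82% (78% to 85.4%). For WDR4-only sites the values were 39.4% (36.2% to 42.6%) and 73% (69.2% to 76.5%). By IGF2BP library, METTL1-only sites exceeded WDR4-only sites in IGF2BP1, with 52.9% and 52.7% against 41.4% and 43.2%, and in IGF2BP2, with 34.5% and 47.1% against 27.2% and 34.1%. In the first pair of IGF2BP3 libraries they did not, with 24% and 26% against 26.2% and 28.3%. In the pair labelled bio2 they did again, with 21.9% and 21% against 13.5% and 12.7%.

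**Figure D5:**
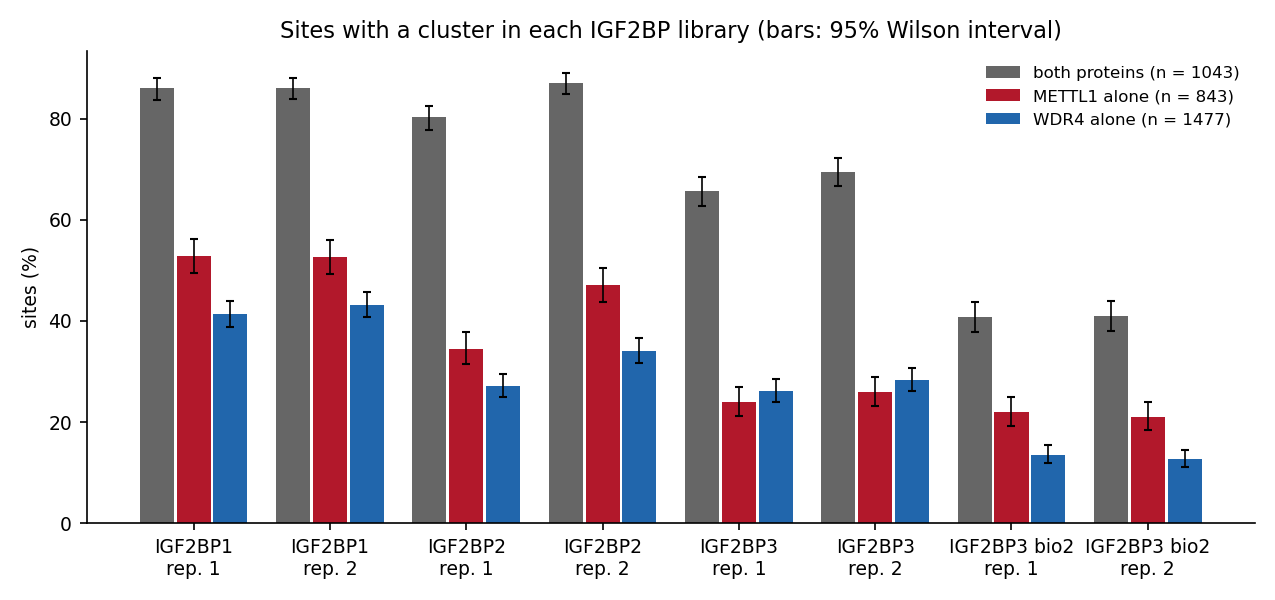
Percentage of the sites of both proteins (grey), METTL1 alone (red) and WDR4 alone (blue) with a cluster in each of the 8 IGF2BP libraries, with 95% Wilson intervals as bars. Shared sites are highest in every library, from 40.7% to 87.1%, and METTL1-only sites exceed WDR4-only sites except in the first pair of IGF2BP3 libraries.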

How the data were processed

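PAR-CLIP clusters of METTL1, WDR4 and the IGF2BP proteins in HepG2 were used. As the study's methods describe, the authors quality-filtered, clipped and collapsed reads with the FASTX toolkit, mapped them with bowtie, allowing mismatches and up to 10 placements, and called clusters per library with PARalyzer. The labels' processing notes name hg38. Versions and cluster settings are not given in the sources used here. The deposited values are of another kind than a count or a score: each line is an interval with a strand. Starts were read as 1-based, because G, where RNase T1 cuts, then stood just before 74.5% to 86.2% of the METTL1 and WDR4 clusters.

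Clusters were classed by their midpoint on their strand against GENCODE release 44, coding sequence first, then 3' UTR, 5' UTR, other exons and introns. By this order a ribosomal RNA unit inside an annotated intron counted as intron by region, while RNA class took ribosomal RNA units first. GENCODE does not list nuclear tRNA genes, so these and the ribosomal RNA units were taken from RefSeq (GRCh38.p14, 391 tRNA genes with a T-loop consensus, 52 others left out). Ambiguity from overlapping or antisense genes remains. A site took the class of most of its clusters. Copy number counted how often a cluster's central 20 nt occur in hg38. The genome copy held no repeat masking, so the planned masked share was not computed.

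The library was the unit of every test: exact permutation over the 6 ways to divide 4 libraries into 2 and 2 (two-sided, smallest p = 0.333), or over 3 pairings. Sites are not replicates and got 95% Wilson intervals. Genes named were the 5 with most exonic sites of each kind and members of the gene lists with a site. Sites printed were the 2 best agreeing single-copy sites per kind and region, off chromosome 8, and tRNA genes with a site; 1 site that this rule selects is not reported here. Members and lists were chosen with earlier results of these data known. The low-G class and the comparisons with IGF2BP clusters by width, region and number of libraries were added after the data were seen. Computation used Python 3.11.15, numpy 2.4.6, pysam 0.24.0 and matplotlib 3.10.9, and the code was tested on simulated data (9 of 9 checks passed). Alternatives were nuclear chromosomes without contigs, single-copy centres, wider clusters, equal numbers of clusters, another overlap, annotation order, window and unit, a replicate block and each library left out.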

Additional observations from a re-analysis of the deposited data

How the results depend on the processing

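All 16 main differences between METTL1 and WDR4 in region, RNA class and sequence kept their direction under every alternative run, as did 23 of the 26 differences compared and the excess of same-protein pair overlap, but several shrank to near 0. The ribosomal difference was 0.0216 points with single-copy centres, and with wider clusters the intergenic difference was -0.298, the 3' UTR difference 0.509, the 5' UTR difference 0.454 and the nuclear tRNA difference 0.0263. The single-copy filter takes out the stretches that the near-identical ribosomal units share, so the ribosomal value is set by that filter. The 3 that turned were the antisense share (0.0223 points with wider clusters), the share with over 10 copies of the centre (-2.17 with reproducible sites as the unit) and the share ending in G (-4.56 with wider clusters, and -1.8 to 2.37 with a library left out), and the cause was not tested. The share of METTL1 sites also found for WDR4 was 52.6% on nuclear chromosomes without contigs, 43.5% with single-copy centres, 63.8% with wider clusters and 17.7% to 69.8% with a library left out. The share of WDR4 sites was 36.8%, 28.9% and 48.2%, and 48.8% with equal numbers of clusters, and 14.3% to 56.7% with a library left out. Shared sites numbered 316 with single-copy centres and 637 with wider clusters, METTL1-only sites 420 and 382, and WDR4-only sites 784 and 709. WDR4-only sites numbered 928 with equal numbers of clusters. Sites with no cluster of the other protein numbered 424 for METTL1 and 907 for WDR4. With a library left out METTL1-only sites numbered 584 to 7117 and WDR4-only sites 1105 to 8360, since a protein with 1 library keeps all of its clusters. Genes of both proteins numbered 202 with single-copy centres and 244 with wider clusters, METTL1-only genes 122 with wider clusters and 142 to 1582 with a library left out, and WDR4-only genes 216, 194 and 186 to 1614. With sites rebuilt from single-copy clusters alone (316, 420 and 784 sites, not the subset of sites with such a centre given above) the IGF2BP share was 92.4% for shared, 74% for METTL1-only and 46.9% for WDR4-only sites, and with no cluster of the other protein 59.9% and 39.4%. The share in introns of protein-coding genes was 10.2% for shared sites without contigs, 14% for METTL1-only sites with single-copy centres, and 20.3% and 30.5% for METTL1-only and WDR4-only sites with no cluster of the other protein. The low-G share of shared sites was 30.8% without contigs and 43.7% with single-copy centres, where METTL1-only sites had 17.9%. These last comparisons of shared and other sites were chosen after seeing the data. In the replicate block the low-G difference was -16 points, as without it, and the block changed no direction (smallest exact sign test p = 0.5). The replicate numbers were not known to pair libraries, and the replicate differences of the proteins had a correlation of 0.00785 over sites. Without read counts, the depth behind a missing cluster was unknown.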
